A study of Rattus norvegicus with 12 samples.

Results

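Calvarial bone ablated with an Er:YAG laser was compared with calvarial bone drilled with a bur, 72 h after surgery. The comparison rests on 8 of the 12 arrays of the series, 4 labelled laser and 4 labelled bur, chosen by their labelled group, and it was also made as 4 differences between arrays of the same number. All rats were 10 weeks old, and the tissue of every sample was the bone of the skull roof. The wound in both groups was a rectangle of 8 by 3 mm. In the laser group it was cut in 3 strokes with a chisel-shaped contact tip moved at about 2 mm/s, at 20 Hz with pulses of 200 µs, a panel setting of 220 mJ and an output of 127 mJ per pulse, and 20.2 J/cm2 per pulse at the tip. In the bur group it was cut in a few strokes at about 0.75 mm/s. In the 4 control samples, used here as context, the treatment protocol says that the periosteum was taken off and the bone was left uncut, while the sample labels call this bone non-treated. Strain and sex are not given in the sources used here. The labels do not tell whether each array had a rat of its own or whether a number stands for 1 rat. The p-values therefore speak only of scatter among these arrays, part of which may be technical.

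A cut through the skull roof opens marrow spaces and small vessels, and the days after it are those in which leukocytes clear debris and mesenchymal cells gather before new bone is laid down. Bone is made by osteoblasts, which are driven by transcription factors such as Runx2 and osterix (Sp7) and by Wnt, BMP and Hedgehog signals. Some of these cells become buried as osteocytes, whose secreted protein sclerostin, encoded by Sost, binds Wnt co-receptors and restrains bone formation, and bone is removed by osteoclasts, which form from myeloid precursors under RANKL and CSF1. An Er:YAG laser emits infrared light that water and mineral absorb, so that tissue is ablated in small explosive steps, whereas a bur cuts by friction and leaves a smear of debris.

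Each gene was read by a probe of 60 bases on a 1-colour array, and the result for a gene is the result for that probe. The probes of 6 genes on which the account turns are given below, because they show which stretch of the genome each value stands for: Sost, the gene in the series title, and 5 genes whose laser and bur values did not overlap. The first 30 bases are written 5′ to 3′ in lower case, and no base is singled out.
Sost: agagtacccagagcctcctcaggaactaga
Notum: aaggagaggaatggaattgcttctttggct
Sp7: ttcacctgtctgctctgctccaagcgcttt
Ihh: aggggggaacccatgggagaattttgggaa
Il11: ccagagtttccaccatgactgtattttgca
Fas: ttcgtgaaaccgacaacaactgctcagaag
On rat build rn4, as the file headers give the positions, the Sost probe lies at chr10:91026551-91026610 on the minus strand and the Sp7 probe at chr7:141109948-141110007 on the minus strand. The Ihh probe lies at chr9:74287130-74287189 on the minus strand, and the Notum probe runs from chr10:110048807-110049298 on the minus strand, a stretch longer than its 60 bases. On the plus strand lie the probes of Il11 at chr1:67792503-67792562 and Fas at chr1:238259523-238259582. The exons or untranslated regions that these positions fall in were not analysed here.

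Levels below are log2 of the processed signal minus log2 of the 75th percentile of the same array, so a difference of 1 is a doubling. A probe counted as measured on an array where the scanner software called it well above background. On the 8 arrays, 59.8% to 67.0% of probes were, and at each number the bur array had more such probes than the laser array, 66.5%, 67.0%, 63.4% and 63.0% against 62.9%, 65.5%, 59.8% and 60.0%. The 75th percentile used for centring, in linear signal, was also higher in bur at each number, 1157, 1311, 963 and 811 against 811, 1158, 725 and 743. All 8 arrays lay on 1 slide and were scanned together, bur in column 1 and laser in column 2, and the replicate number was the row. Slide column and group therefore cannot be told apart, nor replicate number and slide row. The controls lay on another slide with another scan. The defining bone genes Col1a1, Bglap, Sparc, Ibsp, Dmp1, Mepe and Sost were well above background on all 8 arrays.

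Same-numbered laser and bur arrays deviated together. The correlation of their deviations from the group means, over all genes, was 0.25, 0.25, 0.16 and 0.37 for numbers 1 to 4, while the 12 pairs of different numbers ranged from -0.28 to 0.14 with a median of -0.097. Deviations within a group cancel out, so positive same-numbered values press the others downward by construction. The negative median is therefore no separate observation. The first principal component of the 8 arrays, with 26.7% of the variance, ran with the number in both groups: -37.1, -27.0, 0.94 and 35.1 for bur 1 to 4, and -31.0, -12.1, 21.1 and 50.02 for laser 1 to 4. The numbers were taken to pair the samples, and the fit with the number as a block is given wherever it alters what is said. Some genes showed the number openly, in the controls too, as was noticed after their values were seen. Mpped1 was at -2.31 in bur 4, -2.24 in laser 4 and -0.90 in control 4, and between -8.48 and -6.51 on the other 9 arrays. On 10 genes the 3 arrays of number 4 lay at least 1 above all 9 others, and the array design describes 6 of these as immunoglobulin genes. On 11 genes the arrays of number 1 did so, among them Myh1, a fast skeletal muscle myosin, and 5 of the 11 belong to the list of skeletal muscle markers. Outside that list, the 11 also held Myh8, another myosin heavy chain gene, and nebulin.

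**Figure D1:**
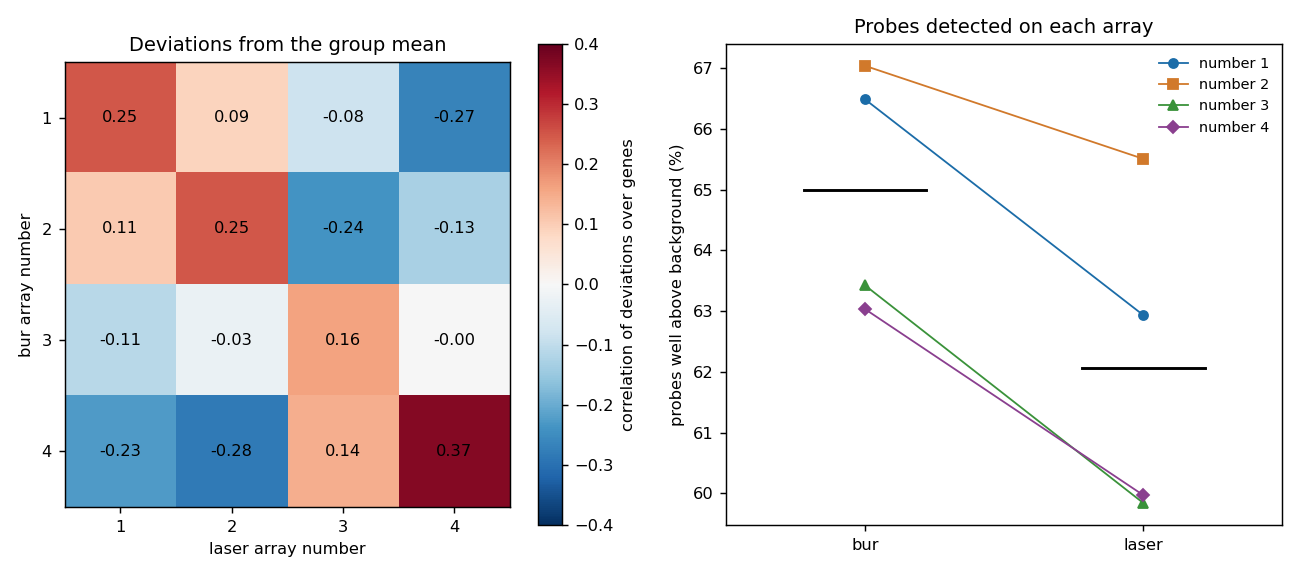
Left, the correlation over all genes between each bur array's and each laser array's deviations from its group mean, by array number; right, the percentage of probes well above background on each array, same numbers joined, with black bars for the group means. The diagonal, for equal numbers, holds 0.16 to 0.37 and the other cells -0.28 to 0.14, and every line on the right runs down from bur to laser.

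Laser and bur bone were close to each other. Of 22707 genes tested, 0 (0%) were called higher and 0 (0%) lower in laser bone at an adjusted p under 0.05 (limma on the 8 arrays, Benjamini-Hochberg over all genes). The smallest adjusted p was 0.204, for Zic2, and every other gene was at 0.9996 or above. Unadjusted p was under 0.05 for 645 genes higher in laser bone (2.84%) and 189 lower (0.832%). With the replicate number as a block, limma again called 0 genes, the smallest adjusted p was 0.817, and 1010 genes (4.45%) were higher and 338 (1.49%) lower at an unadjusted p under 0.05. A fit on all 12 arrays called 0, with 472 higher (2.08%) and 105 lower (0.462%) at that unadjusted p. The authors' deposited table of the same comparison, with 23269 lines, holds 0 lines with an adjusted p under 0.05 and 699 with an unadjusted p under 0.05. No gene below is therefore said to differ between the groups, and the values describe these 8 arrays.

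The arrays set limits on how far the groups could lie apart. Among the 19493 genes well above background on all 8 arrays, the 95% interval of the difference reached a median of 0.40 to either side of it. For 17624 of them (90.4%) the whole interval lay within -1 and 1, so that a 2-fold difference in either direction was outside it, and for 1869 it reached past. The median SD over genes was 0.25 among bur arrays and 0.26 among laser arrays, against 0.34 among controls. On 357 genes (1.57%) all 4 laser values lay above all 4 bur values, and on 132 (0.581%) they lay below. All 4 same-numbered differences were above 0 for 2111 genes (9.3%) and below 0 for 1078 (4.75%). These shares are the background for the counts of gene lists that follow, along with the 54.1% of genes whose mean difference was above 0, the 45.9% below 0 and the median difference over all genes of 0.02. With normexp background correction that median was 0.13, the level against which normexp values below are to be read. With it the non-overlapping genes were split 298 higher to 58 lower. The split was 324 to 203 with quantile normalization, 234 to 156 with median centring, 335 to 166 in the deposited log2 table and 829 to 193 with no detection filter.

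**Figure D2:**
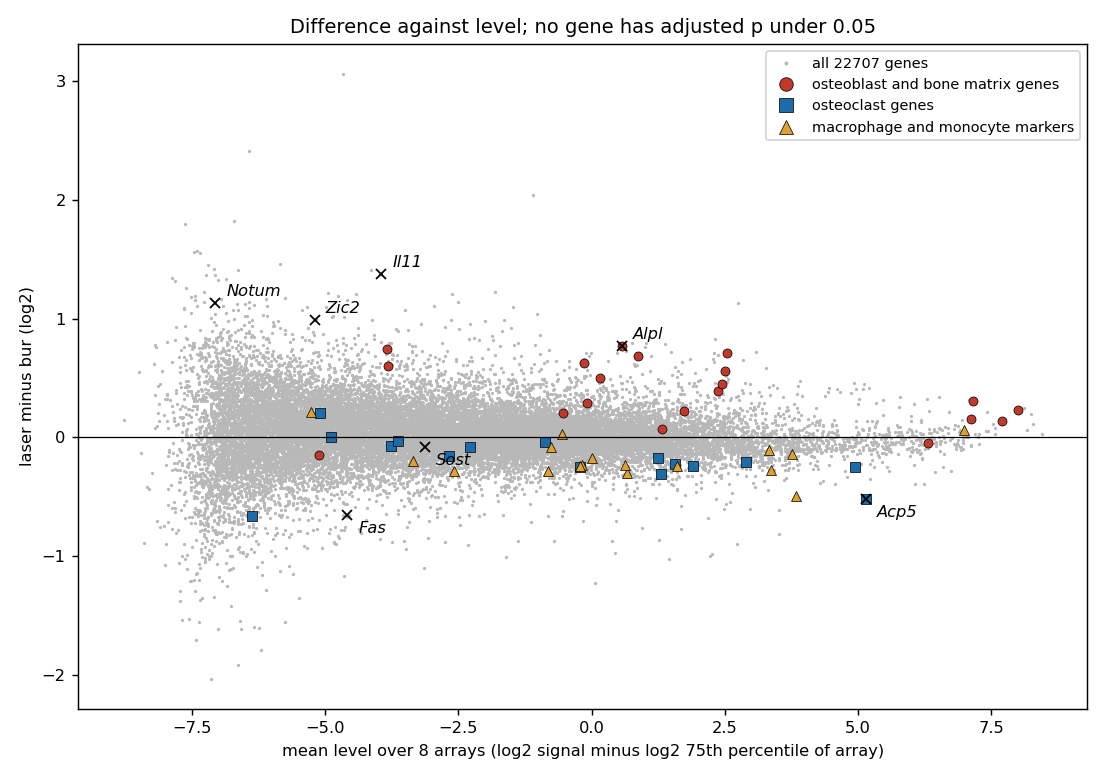
The laser minus bur difference in log2 (vertical) against the mean level over the 8 arrays (horizontal) for all 22707 genes, with osteoblast, osteoclast and macrophage genes marked and 7 genes named. Osteoblast genes sit mostly above the line at 0 and osteoclast and macrophage genes mostly below it.

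The title of the series speaks of a decrease of Sost with the laser. Sost stood at -2.61, -3.61, -2.75 and -3.41 in bur bone 1 to 4 and at -2.74, -4.25, -2.84 and -2.88 in laser bone 1 to 4. The laser values lay inside the bur range apart from laser 2, the lowest of all, and the control values, -3.45 to -2.96, lay within both. Laser minus bur was -0.08 (SE 0.38, 95% interval -0.94 to 0.78, limma adjusted p = 0.9996, n = 4 and 4). The exact two-sided permutation test gave p = 0.8 and the exact sign-flip test of the 4 same-numbered differences p = 0.625, where the designs allow no less than 0.0286 and 0.125. At numbers 1, 2 and 3 the laser array was lower, by differences of -0.13, -0.63 and -0.08, and at number 4 it was higher by 0.53. Single arrays decided the sign: the difference was 0.28 without laser 2, 0.08 without bur 1 and 0.03 without bur 3.

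The secreted Wnt inhibitors as a list gave no common direction. Of 10 measured members of the list, 5 were above 0 and 5 below, with a median of 0.06 that was below 0 without bur 2. Dkk1 encodes an inhibitor that binds the same co-receptors as sclerostin. It was at -0.53, -0.93, -0.08 and -0.04 in bur bone and at -0.06, -0.56, 0.46 and 0.62 in laser bone. The groups overlapped, yet each laser array was above the bur array of its number, by 0.38 to 0.66. The mean difference was 0.51 (SE 0.30, limma adjusted p = 0.9996, and 0.82 with the block), with an exact permutation p of 0.2 and an exact sign-flip p of 0.125. Notum encodes a secreted enzyme that strips the lipid from Wnt proteins and is itself induced by Wnt. It was at -8.01, -7.13, -8.13 and -7.24 in bur bone and at -6.47, -6.94, -6.15 and -6.43 in laser bone, with no overlap. It was dim, well above background on 1 of 4 bur and 3 of 4 laser arrays, so its difference of 1.13 (SE 0.27, limma adjusted p = 0.9996) is poorly measured, and it was 0.35 with normexp. Sfrp4 (-0.27), which encodes a Wnt-binding protein, and Wif1 (0.18) had intervals that included 0.

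Genes that Wnt signalling induces as its own brakes were the other side of this pathway. Of 10 measured Wnt feedback targets, 8 were above 0 and 2 below, with a median of 0.28 against 0.02 for all genes. On 2 of them, Nkd2 and Notum, laser values lay wholly above bur values, against 1.57% of all genes. Notum, dim and poorly measured as said above, is counted in the inhibitor list too. It was well above background mainly on laser arrays, where it was higher, so its lack of overlap adds no support to this count. Nkd2, which restrains Dishevelled, was at -1.61, -1.95, -1.48 and -1.83 in bur bone and at -1.06, -1.34, -1.35 and -1.28 in laser bone. The lowest laser value lay above the highest bur value, and the difference was 0.46 (SE 0.14, limma adjusted p = 0.9996). Axin2, a scaffold of the complex that destroys beta-catenin, was at -5.84, -5.90, -5.73 and -6.19 in bur bone and at -5.31, -5.51, -5.31 and -5.80 in laser bone. Its 4 same-numbered differences were 0.39 to 0.53, although laser 4 lay inside the bur range. The mean difference of 0.43 was 0.31 with normexp and 0.18 in the authors' deposited table. Apcdd1, a membrane inhibitor of Wnt, was higher by 0.48 (SE 0.20) and was also above 0 at every number. Tnfrsf19, the lowest of the list at -0.26, was well above background on 3 bur arrays and 1 laser array. Neither Nkd2, Axin2 nor Apcdd1 passed with the block either (limma adjusted p = 0.82 for each).

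**Figure D3:**
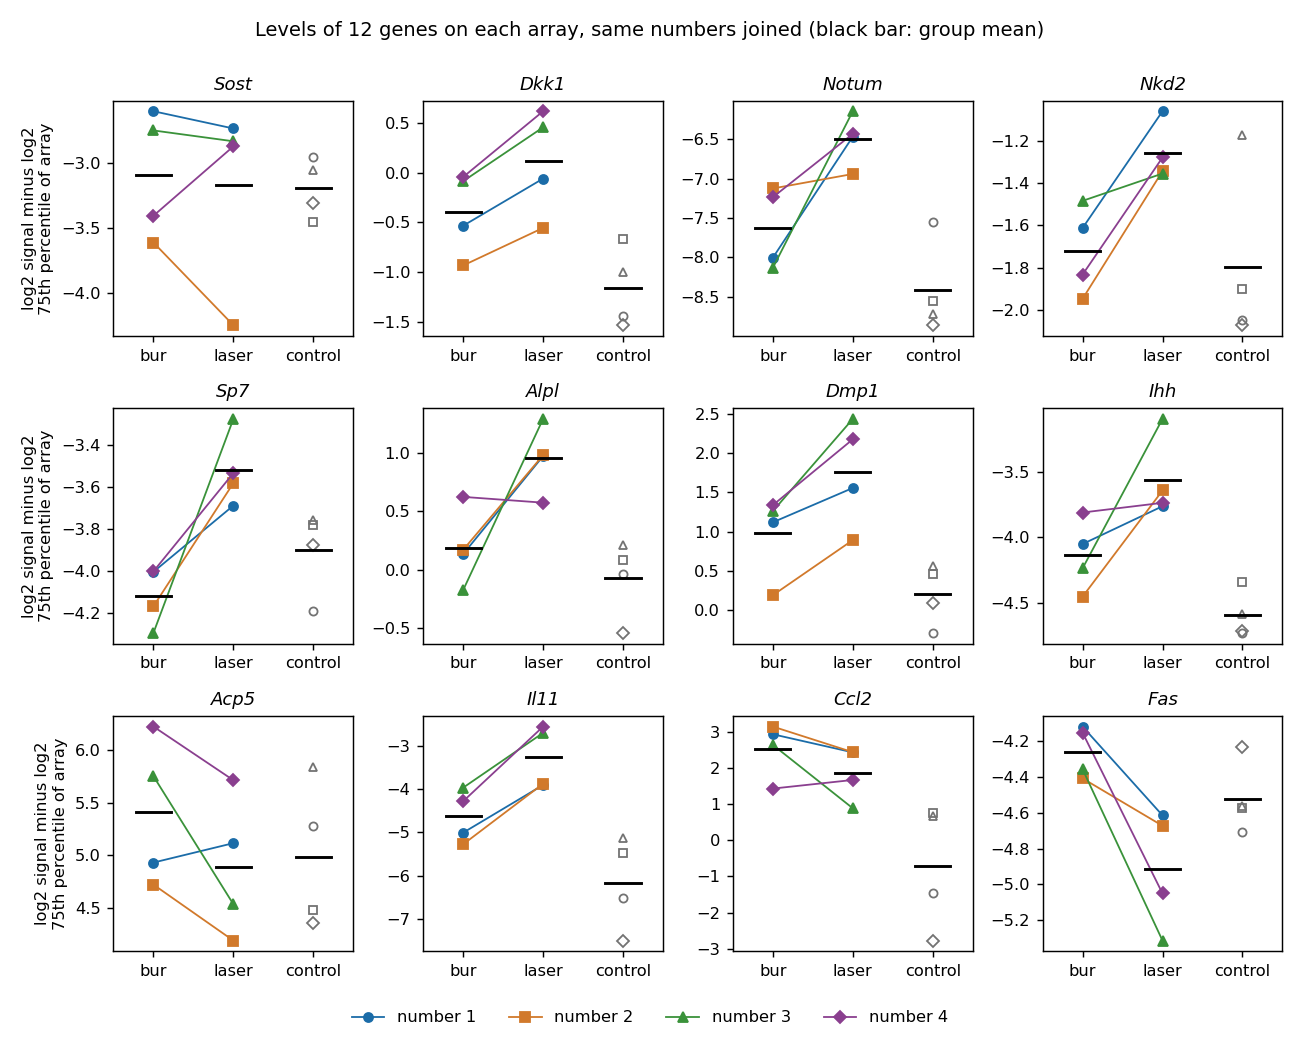
Levels of 12 genes on each array, in log2 signal minus the log2 75th percentile of the array, with bur and laser arrays of the same number joined, controls as open symbols and black bars for group means. Notum, Nkd2, Sp7, Ihh, Il11 and Fas show no overlap between bur and laser; Sost, Dkk1, Alpl, Dmp1, Acp5 and Ccl2 overlap.

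Most osteoblast and bone matrix genes had higher mean levels in laser than in bur bone, and none was called. All 20 were measured, 18 were above 0 and 2 below, and the median was 0.35. On 4 of the 20 the laser values lay wholly above the bur values and on 8 every same-numbered difference was above 0, against 1.57% and 9.3% of all genes. Sp7 encodes osterix, which commits cells to the osteoblast line. It was at -4.0, -4.17, -4.30 and -4.0 in bur bone and at -3.69, -3.58, -3.27 and -3.53 in laser bone. No laser value reached down to a bur value, and the difference was 0.60 (SE 0.13, 95% interval 0.29 to 0.91, limma adjusted p = 0.9996). It was 0.40 in the authors' deposited table. The exact permutation p of 0.0286 and the exact sign-flip p of 0.125 follow from the lack of overlap and are no further support. Dlx5, a homeobox gene of early osteoblasts, was higher by 0.50 (SE 0.18), with its laser values between 0.35 and 0.51 and its bur values between -0.58 and 0.27.

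Alpl encodes the phosphatase that frees phosphate for mineral. Its level was 0.13, 0.17, -0.18 and 0.62 in bur bone and 0.98, 0.98, 1.30 and 0.58 in laser bone. Numbers 1 to 3 had higher laser values by 0.81 to 1.47, while at number 4 laser was lower by a difference of -0.05. The mean difference was 0.77 (SE 0.21, limma adjusted p = 0.9996, exact permutation p = 0.0571). The abundant matrix genes were almost level: Col1a1, the main collagen of bone, differed by 0.14 (SE 0.16) and Bglap, encoding osteocalcin, by 0.23 (SE 0.17). Col1a1 was below 0 with quantile normalization and Bglap was at -0.02 in the authors' deposited table. The lowest member, Msx2, was at -0.15 (SE 0.34). By number the list medians were 0.21, 0.45, 0.88 and 0.03, so number 3 held the widest gap and number 4 almost none. Leaving out any 1 array moved the list's median between 0.26 and 0.48. In bulk bone, fewer cells of a type and less RNA per cell cannot be told apart.

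Osteocyte genes were more mixed. Of 13 measured members, 10 were above 0 and 3 below, with a median of 0.12. Leaving out 1 array moved this median between 0.01, without bur 2, and 0.35, without laser 1. Phex was the 1 member with laser values wholly above bur values, against 1.57% of all genes. Phex encodes a peptidase of phosphate control. It was at -3.41, -4.29, -4.02 and -3.21 in bur bone and at -3.13, -3.18, -2.71 and -3.01 in laser bone, a difference of 0.73 (SE 0.25). Dmp1, which encodes an acidic matrix protein that seeds mineral around osteocytes, was at 1.12, 0.19, 1.26 and 1.34 in bur bone and 1.56, 0.89, 2.44 and 2.18 in laser bone. All 4 same-numbered differences of Dmp1 were above 0, from 0.44 to 1.18, with a mean of 0.79 (SE 0.38, limma adjusted p = 0.9996, and 0.82 with the block). Mepe, another osteocyte matrix gene, was higher by 0.37 with an interval from -0.53 to 1.28, and Irx5, a homeobox gene, by 0.46. Sost and Capg, an actin-capping gene, were among the 3 below 0.

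Cartilage and Hedgehog genes and BMP genes were described as 2 further arms of bone formation. Of 14 measured cartilage and Hedgehog genes, 12 were above 0 and 2 below, with a median of 0.16, which was 0.37 without bur 4 and -0.46 at number 4 alone. Ihh encodes Indian hedgehog, a ligand made by prehypertrophic cartilage and bone-forming cells. It was at -4.05, -4.45, -4.24 and -3.81 in bur bone and at -3.76, -3.64, -3.10 and -3.74 in laser bone. Its receptor gene Ptch1, which Hedgehog signalling induces, was at -5.32, -5.40, -5.41 and -5.58 in bur bone and at -4.84, -4.94, -4.28 and -5.23 in laser bone. Only on these 2 of the 14 members did laser values lie wholly above bur values, against 1.57% of all genes. The differences were 0.58 (SE 0.20) and 0.60 (SE 0.20), with a limma adjusted p of 0.9996 for each. Gli1, the transcription factor at the end of that pathway, was higher at numbers 1 to 3 and lower at number 4 (-0.69), with a mean of 0.41. Col11a2, a fibrillar collagen of cartilage and bone, was higher by 0.72 (SE 0.21), and Ucma, a cartilage matrix gene, was the lowest member at -1.23. Of 20 BMP ligands, antagonists and targets, 14 were above 0 and 6 below, with a median of 0.26. Bmp3, a BMP family member that dampens bone formation, was the 1 member without overlap (0.46, SE 0.13), against 1.57% of all genes. Bmp7 was higher by 0.53 and Chrdl1, an antagonist, was the lowest at -0.48.

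**Figure D4:**
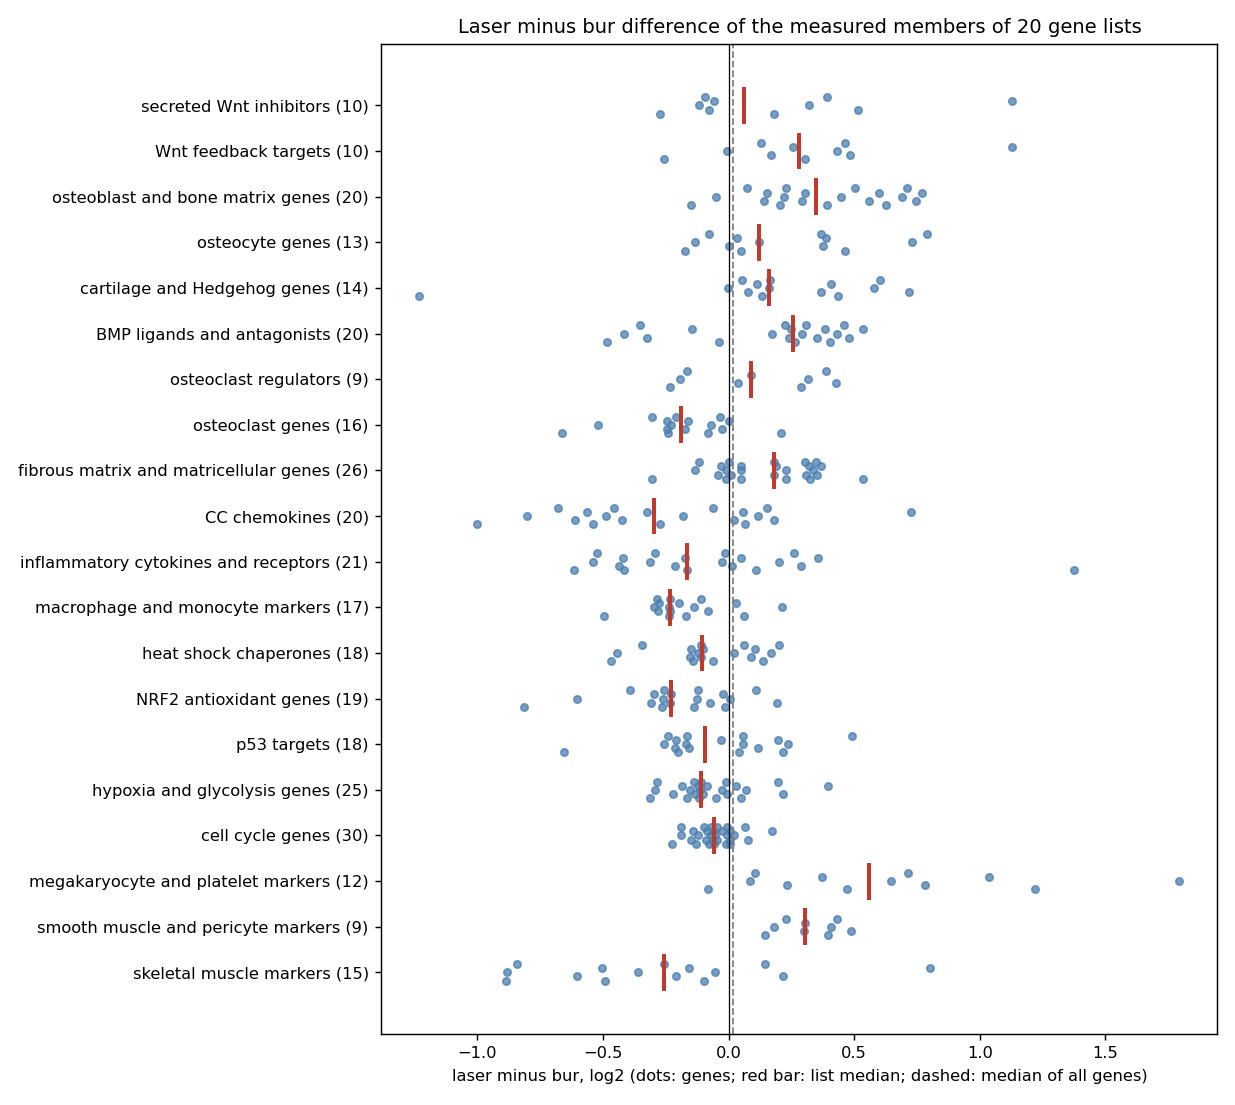
Laser minus bur differences in log2 (horizontal) of the measured members of 20 gene lists (number in brackets), each dot a gene, with a red bar at the list median and a dashed line at the median of all genes. Medians run from -0.30 for CC chemokines to 0.56 for megakaryocyte and platelet markers, and the 9 smooth muscle and pericyte markers are all to the right of 0.

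Most osteoclast genes had lower mean levels in laser than in bur bone, but not at every number, and none was called. Of 16 measured, 2 were above 0 and 14 below, with a median of -0.19, and on none did the groups lie apart. Acp5 encodes the tartrate-resistant phosphatase of osteoclasts. It was at 4.93, 4.72, 5.75 and 6.22 in bur bone and at 5.12, 4.19, 4.54 and 5.71 in laser bone. At number 1 laser was higher by 0.18 and at numbers 2 to 4 it was lower, and the mean difference was -0.52 (SE 0.42, limma adjusted p = 0.9996). Ctsk, the collagen-cutting protease of osteoclasts, differed by -0.25 (interval -1.14 to 0.65). Dcstamp, needed for osteoclast fusion, differed by -0.66, and by 0.13 with normexp, where the median of all genes was also 0.13. The list medians by number were 0.47, -0.18, -0.77 and -0.15. The list's own median was above 0 without bur replicate 4 and, with the block, without replicate 3.

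Regulators of osteoclasts gave no common direction. Of 9 measured, 6 were above 0 and 3 below, with a median of 0.09. Tnfsf11, which encodes RANKL, was at -5.89, -6.59, -5.46 and -6.47 in bur bone and at -5.32, -5.97, -5.49 and -6.49 in laser bone. It was higher with the laser at numbers 1 and 2 and nearly equal at numbers 3 and 4, with a mean difference of 0.29 (exact permutation p = 0.486). The authors' deposited table gives -0.02 for it. Tnfrsf11b, the gene of the RANKL decoy osteoprotegerin, was higher by 0.32 (interval -0.25 to 0.89), Lgr4, a receptor that also binds RANKL, by 0.43, and Csf1 was at -0.16.

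The widest difference in the cytokine and chemokine lists was that of Il11, an interleukin-6 family cytokine gene known to support bone formation. Il11 was at -5.01, -5.28, -3.97 and -4.28 in bur bone and at -3.91, -3.88, -2.70 and -2.56 in laser bone. Each laser array stood above all bur arrays, by 1.1, 1.40, 1.27 and 1.73 over the bur array of its number, and the 4 laser arrays also stood above the controls at -7.50 to -5.12. The mean difference was 1.37, a ratio of 2.59 (SE 0.41, 95% interval 0.44 to 2.31). It was not called (limma adjusted p = 0.9996, and 0.82 with the block, unadjusted p = 0.00918 and 0.00010). The exact permutation p was 0.0286 and the exact sign-flip p 0.125, the smallest that each design allows. Any gene without overlap gets these values, and Il11 was named through the no-overlap rule, so they are no further support. With normexp the difference was 0.80.

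Il11 stood apart from its list. Of 21 measured inflammatory cytokines and receptors, 8 were above 0 and 13 below, with a median of -0.17 (above 0 with the block and without replicate 3). CC chemokines and receptors, which draw monocytes and lymphocytes, had 7 members above 0 and 13 below. Their median was -0.30 (0.06 with normexp, against 0.13 for all genes). Ccl2, the main monocyte attractant, was at 2.93, 3.14, 2.63 and 1.43 in bur bone and at 2.43, 2.43, 0.88 and 1.66 in laser bone. Laser 3 was the lowest and the groups overlapped, with a difference of -0.68 (SE 0.46). Ccl5 was at -0.54 and the chemokine receptor gene Ccr1 at -0.42, with its 4 same-numbered differences between -1.05 and -0.14. CXC chemokines and receptors had 8 members above 0 and 7 below, with a median of 0.02. Their highest member, Cxcl10, which interferon induces, was higher by 0.99. It ranged over -3.44 to -0.81 in bur bone, and number 2 alone differed by 2.55.

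Macrophage and monocyte markers had 3 members above 0 and 14 below, with a median of -0.23. The list medians by number were -0.42, -0.13, -0.62 and 0.20, so number 4 went the other way. Without bur 2 the median was -0.03, without bur 3 it was -0.08 and without bur 4 it was -0.42. Gpnmb, a gene of phagocytic macrophages and osteoclasts, was lower in laser bone at each number, with a mean difference of -0.50 (SE 0.47), and Csf1r, the CSF1 receptor gene, likewise at -0.29. Cd68 was at -0.28 and Mmp12, macrophage elastase, at -0.71, where laser 3 stood at -2.09 and the other laser arrays between -0.25 and 0.38. The 17 markers summed, on the linear scale and against the 75th percentile of each array, came to 166 to 214 in bur and 176 to 202 in laser bone. Lyz2, by far the brightest at means of 6.95 and 7.01, made up most of this sum, and it differed by 0.06. None of these markers was called, and their part in the osteoclast values, whose cells share the lineage, was not tested.

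Heat and damage genes were set side by side because the wounds were made by light or by friction. Of 18 heat shock chaperone genes, 7 were above 0 and 11 below, with a median of -0.10, which was -0.03 without bur 3. Hsp90aa1, the inducible cytosolic HSP90, was at 3.37, 3.25, 3.87 and 3.62 in bur bone and at 3.25, 2.94, 3.08 and 3.06 in laser bone. It was the 1 member with laser values below every bur value, though laser 1 and bur 2 were equal to 2 decimals. Its difference was -0.44 (SE 0.16, limma adjusted p = 0.9996). Hsf1, a heat shock transcription factor gene, was the 1 member with laser values above every bur value, by a mean of 0.14 (SE 0.11). The authors' deposited table gives -0.0005 for Hsf1. Over all genes the shares were 0.581% below and 1.57% above. Hsph1, a co-chaperone gene, was lower at each number, by -0.14 to -1.0, with a mean of -0.47 that was -0.15 with normexp. Hspa1a, the classic inducible HSP70, was so uneven (-2.32 to 2.06 in bur bone, -2.01 to 0.62 in laser bone) that its difference of -0.34 had an interval of -2.46 to 1.77.

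NRF2 antioxidant genes had 3 members above 0 and 16 below, with a median of -0.23, which was -0.09 with normexp, -0.08 without bur 3 and between -0.30 and -0.14 without any 1 other array. Hmox1, which encodes haem oxygenase and answers haem and oxidants, was at 3.41, 2.91, 4.54 and 2.25 in bur bone and at 1.96, 2.73, 3.69 and 2.32 in laser bone. The groups overlapped and the difference was -0.60 (SE 0.52). Gpx2 was at -0.81, carried by number 1 (-2.02) and number 3 (-1.10), and was -0.25 without bur 1 and -0.03 with normexp. Of 18 p53 targets, 8 were above 0 and 10 below, with a median of -0.09 (0.05 with normexp, against 0.13 for all genes). On 2 of them the laser values lay wholly below the bur values and 5 had all same-numbered differences below 0, against 0.581% and 4.75% of all genes. Fas, a death receptor gene that p53 induces, was at -4.12, -4.41, -4.36 and -4.15 in bur bone and at -4.61, -4.67, -5.31 and -5.05 in laser bone. The highest laser value lay below the lowest bur value, with a difference of -0.66 (SE 0.18, limma adjusted p = 0.9996), which was -0.08 with normexp. Ccng1, cyclin G1, was the other, at -0.26 (SE 0.13). Hypoxia and glycolysis genes had 6 members above 0 and 19 below with a median of -0.11. Bur 3 was the high array of that list, and without it the median was 0.11. Cell cycle genes had 7 above and 23 below with a median of -0.06, above 0 without bur 2.

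**Figure D5:**
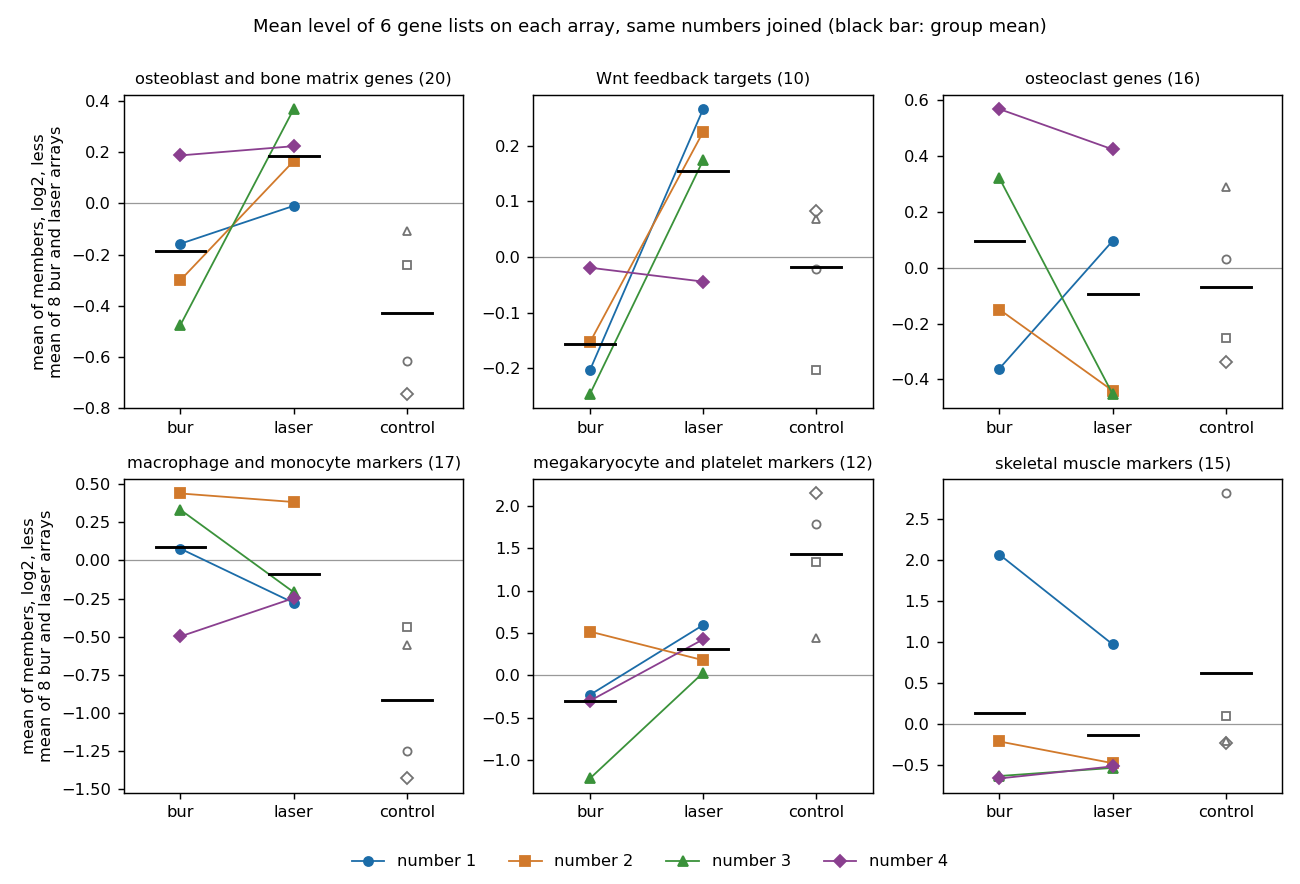
Mean log2 level of the measured members of 6 gene lists on each array, less the mean of the 8 bur and laser arrays, with same numbers joined, controls as open symbols and black bars for group means. The osteoblast line climbs at all 4 numbers, from -0.475 to 0.368 at number 3 and from 0.19 to 0.22 at number 4, while skeletal muscle is high in the arrays of number 1, including the control.

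Markers of other cell types show what else the pieces of bone held. Megakaryocyte and platelet markers had 11 of 12 members above 0 and a median of 0.56, which was 0.19 without bur 3. Gp1ba, a platelet adhesion receptor gene, differed by 1.79, but was well above background on 1 bur and 2 laser arrays, and by 0.40 with normexp. Clec1b, another platelet receptor gene, was higher by 0.72 (SE 0.42). The summed linear level of the list was 7.96 to 14.0 in bur and 9.72 to 15.6 in laser bone. Pf4, the brightest member at means of 2.66 and 2.75, weighed most in this sum, and it differed by 0.08. Erythroid markers split 9 to 11 and swung with the number, with list medians of 0.97, -1.69, 1.27 and -0.70.

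Vessel wall genes were above 0 in all 9 measured smooth muscle and pericyte markers, with a median of 0.31 and summed linear levels of 5.78 to 8.33 in bur and 7.37 to 9.64 in laser bone. Rgs5, a pericyte gene, was at -2.38, -1.69, -1.52 and -1.11 in bur bone and at -1.42, -1.12, -1.25 and -0.97 in laser bone, a difference of 0.49 (SE 0.25). Notch3, a receptor gene of mural cells, was higher by 0.41 and by 0.03 to 0.83 at the 4 numbers. Endothelial markers had 14 of 17 members above 0 with a median of 0.14, below 0 without bur replicate 1. T cell and NK cell markers had 3 of 16 above 0, with a median of -0.33 (0.06 with normexp, against 0.13 for all genes). MHC class II genes had 0 of 8 above 0 with a median of -0.14, above 0 without bur 2 or without laser 1.

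Skeletal muscle followed the number. Of 15 muscle markers measured, 3 were above 0 and 12 below, with a median of -0.26, which was 0.35 without bur 1. Myh1 was at -0.13, -4.81, -6.06 and -6.55 in bur bone and at -2.14, -5.73, -6.52 and -6.69 in laser bone. Number 1 was high in both groups, and the difference was -0.88 (SE 1.52), above 0 without bur replicate 1. The summed linear level of the muscle list was 1.20 to 9.08 in bur and 1.28 to 3.45 in laser bone. Nerve and Schwann cell markers gave no common direction, with 6 of 15 above 0 and 9 below. Their median was -0.07 (0.08 with normexp, against 0.13 for all genes). Mbp, the myelin basic protein gene, was lower in laser bone at each number, by differences of -1.69, -0.15, -0.89 and -0.76. Its mean difference was -0.87, and -0.15 without bur 1. Sox10, a Schwann cell factor gene, was higher by 0.26 and Nefh, a neurofilament gene, by 0.23. The part of muscle, marrow and vessel tissue in the bone values was not tested.

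Over all genes tested, laser values lay wholly above bur values for 1.57% and wholly below for 0.581%. Among the 14490 genes with a symbol, 299 met the rule of no overlap and 1 direction at every number with enough signal. Of these, 220 were higher and 79 lower in laser bone. The 12 highest ranged from 0.82 to 1.37 and the 12 lowest from -1.11 to -0.51. Zic2, which encodes a zinc finger factor of the embryonic neural plate and midline, was the tightest. It was at -5.62, -5.72, -5.60 and -5.81 in bur bone and at -4.69, -4.68, -4.78 and -4.67 in laser bone. The gap between the groups was several times the spread within them, with a difference of 0.99 (SE 0.11, 95% interval 0.75 to 1.23). Zic2 had the smallest p of all genes and was named through the no-overlap rule, so this gap and interval are no separate support. Its limma adjusted p was 0.204, and 0.82 with the block. The difference was 0.55 with normexp and 0.50 in the authors' deposited table, both below that interval. The controls, at -4.52 to -3.77, lay above both groups, so Zic2 was lowest in bur bone. Pcdhb2, a protocadherin gene, was higher by 1.02 and well above background on 2 of 4 bur arrays, and Khdc1b was higher by 1.11. With normexp these 2 were at 0.39 and 0.43, and the authors' deposited table gives 0.30 for Khdc1b. Cryba4, a crystallin gene, was higher by 0.91 and Duox1, an oxidase gene whose product makes hydrogen peroxide, by 0.90.

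Among the lowest, Ndst3, an enzyme gene of heparan sulfate synthesis, was at -5.23, -5.00, -4.32 and -4.84 in bur bone and -6.14, -5.47, -5.45 and -5.44 in laser bone. Its difference was -0.78 (SE 0.24), and -0.05 with normexp. Pi4k2a, a lipid kinase gene, was at -3.33, -3.18, -3.10 and -3.07 in bur bone and -3.61, -3.59, -3.74 and -3.82 in laser bone, a difference of -0.52 (SE 0.12), and -0.19 with normexp. Sema3c, a secreted guidance cue gene, was at -0.51 (SE 0.15). Trim17, Tff3 and Mcu, at -1.11, -1.10 and -0.51, were 0.06, 0.14 and 0.08 with normexp, against a median of 0.13 for all genes.

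Control bone gives the scale of the difference between the tools. Both comparisons with control share the 4 control arrays, and slide and group cannot be told apart in them. Laser minus control and bur minus control were 2.90 and 1.53 for Il11, 2.55 and 3.23 for Ccl2, 1.28 and 0.76 for Dkk1, 1.56 and 0.77 for Dmp1, and 1.03 and 0.26 for Alpl. For Sp7 they were 0.38 and -0.22, for Sost 0.02 and 0.10, and for Fas -0.39 and 0.26. For Zic2 they were -0.54 and -1.53.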

How the data were processed

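Total RNA, 200 ng per sample, was labelled with Cy3 and hybridised to 1-colour Agilent arrays, per the labels' protocols. The deposited scanner files hold spot intensity on a linear scale, made with Agilent Feature Extraction 11.0.1.1 per the file headers and the submitters' processing notes, background-subtracted within each array. A deposited table of log2 values, and the authors' deposited comparison table of log2 fold changes, p-values and adjusted p-values, were used as alternatives. The steps by which the authors made them are not given in the sources used here.

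From the scanner files, log2 of the processed signal was centred on the 75th percentile of that array, taken over spots that are no controls. Outlier-flagged spots were left out, spots of a probe averaged, and 36 probes with every spot flagged on some array dropped, a step added after seeing the data. Probes well above background on at least 4 of 12 arrays were kept (29754), and the brightest kept probe stood for a gene (22707 genes, 14490 with a symbol, 5368 with over 1 kept probe). No spot was saturated. Laser and bur arrays were compared with limma 3.58.1 in R 4.3.3, two-sided, with Benjamini-Hochberg adjustment over all genes, without the controls, since their spread was wider. The fit was checked on simulated data. The number of arrays limits the precision.

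The replicate number was taken as a pairing from the correlations in the account above, and the labels do not say what it marks. Genes were named if always listed (Sost, Dkk1 and other bone, chemokine and stress genes, of which Il6 was not measured), if among the 12 highest and 12 lowest of those meeting the no-overlap rule, or if the highest, lowest or 3 others with the smallest p of a list. The comparison, its lists and its rules were chosen with earlier results of these data known. Some genes that the rule took are given only by their range, and a few are not reported here. Alternatives covered background correction, scaling, filters, flagged probes, probe choice, array weights, the block, the controls and each array left out.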

Additional observations from a re-analysis of the deposited data

Results flagged for a closer look

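Among 219 groups of 4 arrays tested for a sample far from the other 3, 7 held one, where chance gives about 1 in 20. The test compares the gap of the outermost array with the whole range of its group. In laser bone, replicate 2 was low for Sost, at -4.25 against -2.88 to -2.74, and for Col1a1, at 7.46 against 7.85 to 7.91. Laser replicate 3 was low for Trim17, at -8.95 against -6.95 to -6.67, and for Tff3, at -8.92 against -6.97 to -6.58. Laser replicate 1 was low for Ndst3, at -6.14 against -5.47 to -5.44. In control bone, replicate 4 was high for Hsph1, at -3.47 against -4.25 to -4.18, and replicate 3 was high for Notch3, at -4.46 against -4.90 to -4.84. No bur array was among these.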

How the results depend on the processing

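Under 25 alternatives, limma called 0 genes higher and 0 lower in laser bone. The smallest adjusted p over them was 0.0997, among genes well above background on all 8 arrays, and it was 0.9999 without bur replicate 1 or 2. With the replicate block on 8 arrays it was 0.817, and with the block on all 12 arrays 0.948. The counts at an unadjusted p under 0.05 ran from 395 to 1262 higher and from 39 to 588 lower. The Sost difference turned from -0.08 to 0.022 with normexp, against 0.13 for the median of all genes. It turned to 0.11 with the replicate block without replicate 2. Leaving out 1 array in turn gave -0.25 to 0.28, and leaving out 1 pair with the replicate block gave -0.28 to 0.11. It was 0.08 without bur replicate 1, 0.03 without bur replicate 3 and 0.28 without laser replicate 2. The cause was not tested. With flagged probes kept, an alternative chosen after seeing the data, 22718 genes were tested and the smallest adjusted p was 0.204. With the block on all pairs of the 8 arrays, the limma adjusted p of the Sost difference was 0.972. Of the genes followed through the alternatives, 57 of 73 kept their sign, as did 12 of 41 list medians. Leaving out 1 array moved 37 of the 41 list medians and 37 of 72 genes other than Sost by over 1.5 times or across 0, and normexp moved 28 and 21. The 4 medians that no single array moved so far were those of the osteoblast, Wnt feedback, BMP, and smooth muscle and pericyte lists. Small differences, dim probes such as Notum, and the confounding of slide column with tool set the limits.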

Other observations

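The widest differences of all depended on how flagged spots were treated. The scanner software marked every spot of 36 probes as an outlier on 1 array, 17 of them on laser 4, 9 on bur 3 and 8 on bur 2. Of these probes, 21 were bright enough to enter the comparison, and all 21 had their highest value of the 12 arrays on the marked array. Had they been kept, 15 genes would have differed by at least 2 on the log2 scale, 11 of them read by a marked probe. Pon1, which encodes a serum esterase made by liver, would have come first at 4.24, from 8.36 in laser 4 against -7.96 to -5.75 on the other 11 arrays. Nfkbid, an inhibitor gene of NF-kappaB, would have stood at 3.39 by its marked probe, from 7.79 in laser 4 against -6.83 to -5.09. With them left out, 4 genes differed by at least 2, and 2 of the 4 still had 1 array at least 4 above every other.

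A few spots that the software did not mark had the same form. Laser 4 held 3 of the 6 remaining genes with 1 array at least 4 above every other. Herc2, a ubiquitin ligase gene, stood at 6.07 in laser 4 against -1.65 or less, Mpc1, the mitochondrial pyruvate carrier gene, at 7.51 against 2.44 or less, and the uncharacterised LOC102546356 at 6.73 against -5.76 or less. These genes were looked at after their values were seen, none was called, and the cause was not tested.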
